A study of Mus musculus with 9 samples.

Results

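The fibrillar and type VI collagens were followed as 8 genes (*Col1a1*, *Col1a2*, *Col3a1*, *Col5a1*, *Col5a2*, *Col6a1*, *Col6a2* and *Col6a3*) in activated hepatic stellate cells (aHSCs) of mice, the scar-forming cells of injured liver. They are 8 of the 30869 gene symbols on the array. Every probe whose gene symbol was one of these names was taken, which gave 19 of 45281 gene probes, and 13 of these collagen probes passed the filter on detection. There were 9 bead arrays in 3 groups of 3, all from mice labelled C57/Bl6 and of the genotype WT1GFP/+, in which green fluorescent protein reports on the WT1 gene. WT1-high (GFP high; replicates 1, 8 and 29) and WT1-intermediate (GFP low; replicates 1, 8 and 30) aHSCs were sorted directly from liver fibrosed by repeated intraperitoneal carbon tetrachloride. WT1-negative aHSCs (GFP negative; replicates 3, 11 and 14) came from stellate cells of uninjured mice that had been left on plastic for 7 days. WT1 status therefore coincided with origin, and the effects of the 2 cannot be told apart in any comparison with WT1-negative cells. By the study's methods the injured mice were young adults when injury began. The labels give every sample as male, whereas those methods state that both sexes served for in vitro work, so the sex of the cultured cells' donors is not settled.

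Fibrillar collagens are secreted as procollagens, in which 3 chains wind into a triple helix that later assembles into the banded fibrils of scar. Type I is mostly a heterotrimer of Col1a1 and Col1a2 chains, type III is a homotrimer of Col3a1, and type V, from Col5a1 and Col5a2, co-assembles with type I and limits fibril width. Type VI, from the Col6a1, Col6a2 and Col6a3 chains, forms beaded microfilaments around cells rather than banded fibrils. Activation of stellate cells is known for the onset of collagen synthesis.

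In fibrotic liver, WT1-high and WT1-intermediate cells had no collagen probe that passed the test between them, where 3.55% of all probes did. Both differed widely from cultured WT1-negative cells, with *Col3a1*, *Col6a1* and *Col6a2* 23.4-fold, 16.2-fold and 13.8-fold higher in WT1-high cells, *Col1a2*, *Col5a2* and *Col6a3* between 3.13-fold and 6.46-fold higher, and *Col5a1* 1.90-fold higher. *Col1a1* went the other way, and was 2.64-fold lower in WT1-high than in WT1-negative cells. These folds refer to the brightest probe of each gene that passed the filter, and they are given with their errors where each gene is described. Their size depended on the background step: without background correction *Col3a1* was 13-fold, *Col6a2* 5.57-fold and *Col5a2* 1.81-fold higher, and *Col6a2* was 8.51-fold higher with the larger offset of 50.

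The arrays detected 38.1% to 43.7% of gene probes, and the mean signal was lowest on the WT1-intermediate arrays (148 to 221, against 231 to 289 on the others). Stellate markers, 8 of 10 kept, summed to a normalized intensity of 8507 to 10070 on WT1-high, 6838 to 9367 on WT1-intermediate and 11980 to 14550 on WT1-negative arrays. They did not move together: against WT1-negative cells *Cygb* and *Pdgfra* were called higher in WT1-high cells (1.28 and 1.88), *Acta2* and *Pdgfrb* lower (-1.78 and -1.14), and *Des*, *Vim* and *Reln* were not called. *Hand2*, detected on no WT1-negative array, was also called higher in WT1-high cells, by at least 1.41-fold. Between the WT1-positive groups *Des* and *Acta2* were called higher in WT1-high cells (1.40 and 0.76) and *Pdgfrb* lower (-1.28). *Rgs5* was detected on no array and *Lrat* only among WT1-high arrays. Macrophage markers, 9 of 10 kept, summed to 2692 to 5496 on WT1-high, 11400 to 17380 on WT1-intermediate and 39950 to 44620 on WT1-negative arrays, with *Cd5l* detected on none and *Clec4f* on no WT1-negative array. Skeletal muscle markers, all 7 kept, summed to 140 to 164, 162 to 199 and 6689 to 10220 in the same order, and *Acta1* and *Myl1* were detected on no WT1-positive array. Mesothelial markers, all 8 kept, summed to 25290 to 29110, 16120 to 21370 and 339 to 433, and *Lrrn4*, *Gpm6a* and *Krt19* were detected on no WT1-negative array. Portal fibroblast markers, 6 of 7 kept, summed to 3612 to 5337, 4101 to 7045 and 1633 to 2786 in the same order of groups, with 4 called higher and 1 lower in WT1-high than in WT1-negative cells and *Gli1* detected on no array. T and NK cell markers, 5 of 6 kept, summed to 479 to 800, 445 to 875 and 102 to 109, with all 5 called higher in WT1-high cells and *Cd3d*, *Cd3e* and *Nkg7* detected on no WT1-negative array. Hepatocyte markers, 4 of 7 kept, summed to 5619 to 8663, 2964 to 4816 and 3381 to 4828, with all 4 called higher in WT1-high cells. *Alb* and *Fgb* were detected on no array. The brightest kept probes of *Apoa1* and *Serpina1a* were detected on no WT1-negative array. They passed the filter only through WT1-positive arrays. The sums rested mostly on *Trf*, with mean log2 levels of 12.54, 11.72 and 11.89 against 8.70, 8.65 and 5.02 for *Ttr*. In WT1-intermediate against WT1-negative cells *Ttr* and *Apoa1* were called higher, *Trf* and *Serpina1a* not. The part of these cell types in the collagen differences was not tested. In such bulk samples, fewer cells of a type and less RNA per cell cannot be told apart.

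Type I collagen was read by a single usable probe for each chain, shown by its first 30 of 50 bases because opposite results rest on them. All letters are in lower case, as no part was singled out:
Col1a1 ILMN_2687872: ccaacgagatcgagctcagaggcgaaggca
Col1a2 ILMN_1253806: tggccccgtctgtttcaaataagtgaactc

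*Col1a1*, the more abundant chain of type I trimers, had normalized log2 levels of 8.16, 9.13 and 8.93 on the WT1-high arrays 1, 8 and 29. On the WT1-intermediate arrays 1, 8 and 30 the levels were 7.95, 9.44 and 9.23, and on the WT1-negative arrays 3, 11 and 14 they were 9.79, 10.35 and 10.27. Every WT1-negative array thus lay above every WT1-positive array, while the WT1-positive groups overlapped. The WT1-high group was lower than the WT1-negative group by a log2 difference of -1.40 ± 0.37 (SE, n = 3 per group; limma, adjusted p = 0.00669). For WT1-intermediate cells the difference was -1.26 ± 0.37 (adjusted p = 0.0119). It rested partly on WT1-intermediate replicate 1, without which it was -0.81 and still called, and it missed the threshold when all probes were tested without a filter (adjusted p = 0.0602). The second *Col1a1* probe was detected on no array, so a single probe carries these values.

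*Col1a2*, the partner chain, had log2 levels of 9.56, 10.71 and 10.34 in WT1-high, 9.42, 10.02 and 10.26 in WT1-intermediate, and 7.67, 7.00 and 7.86 among WT1-negative cells. Here every WT1-negative array lay below every WT1-positive array. The difference was 2.69 ± 0.32 for WT1-high against WT1-negative cells, which is 6.46-fold (95% interval 3.96 to 10.5; adjusted p = 2.88e-05). It was 2.39 ± 0.32 for WT1-intermediate cells, which is 5.23-fold (95% interval 3.21 to 8.53; adjusted p = 8.23e-05). Deposited intensities showed the same contrast without any normalization. *Col1a2* read 856, 2437 and 1378 on WT1-high arrays and 300, 222 and 351 on WT1-negative arrays, whereas *Col1a1* read 365, 912 and 546 against 1098, 1528 and 1545.

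*Col3a1*, the only chain of type III collagen, which is laid down early in scars, showed the largest difference of the 8 genes. Log2 levels of its brighter probe were 10.71, 11.70 and 11.47 in WT1-high, 11.05, 11.22 and 11.06 in WT1-intermediate, and 7.13, 5.75 and 7.36 among WT1-negative cells. WT1-negative replicate 11 was the lowest of the 9 arrays, and the WT1-negative range was well clear of the others. The difference from WT1-negative cells was 4.55 ± 0.37 for WT1-high (23.4-fold, 95% interval 13.3 to 41.2; adjusted p = 1.65e-06) and 4.36 ± 0.37 for WT1-intermediate cells (20.6-fold, 95% interval 11.7 to 36.2; adjusted p = 2.78e-06). The second *Col3a1* probe, detected on all 9 arrays at intensities of 92.0 to 193, did not share this difference, at 0.40 ± 0.23 (adjusted p = 0.152) and 0.23 ± 0.23 (adjusted p = 0.404). It passed the test for WT1-high against WT1-negative cells after cyclic loess normalization (0.61, adjusted p = 0.0336). Both probes are assigned to the same transcript in the deposited annotation, and their first 30 bases are shown because they disagree:
Col3a1 ILMN_1258629: gaatacaattttttgctgtttcaaccaccc
Col3a1 ILMN_2683958: tgtgactcaggatctgtcctttgcgatgac

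*Col5a1* encodes a chain of type V, the collagen that nucleates and regulates fibrils. Its log2 levels were 10.10, 10.81 and 10.51 in WT1-high, 9.59, 10.68 and 10.45 in WT1-intermediate, and 9.59, 9.18 and 9.87 among WT1-negative cells. WT1-high and WT1-negative arrays were separate, whereas the WT1-intermediate range overlapped the WT1-negative one. The difference from WT1-negative cells was 0.93 ± 0.29 for WT1-high cells (1.90-fold, 95% interval 1.22 to 2.96; adjusted p = 0.0169). This call was lost without WT1-high replicate 8 (adjusted p = 0.0699), without WT1-negative replicate 11 (adjusted p = 0.0705), after median scaling (adjusted p = 0.0809) and without the filter (adjusted p = 0.068). For WT1-intermediate cells the difference was 0.69 ± 0.29 and was not called (adjusted p = 0.0597), although it was with replicate as a random block (adjusted p = 0.0416), without WT1-intermediate replicate 1 (1.02, adjusted p = 0.0062) and without WT1-negative replicate 14 (0.86, adjusted p = 0.0494).

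*Col5a2*, the second chain of type V, was detected by 2 of its 5 probes. The brighter of them had log2 levels of 7.58, 7.69 and 7.15 in WT1-high, 6.94, 6.99 and 7.26 in WT1-intermediate, and 6.19, 4.99 and 6.29 among WT1-negative cells. All WT1-negative arrays were the lowest. The difference was 1.65 ± 0.30 for WT1-high (adjusted p = 0.000698) and 1.24 ± 0.30 for WT1-intermediate cells (adjusted p = 0.00456). Without background correction these differences were 0.86 and 0.59, and the second was 0.82 without WT1-negative replicate 11 (still called) and 0.69 after median scaling (adjusted p = 0.142). The other probe gave 1.57 ± 0.16 (adjusted p = 9.53e-06) and 1.07 ± 0.16 (adjusted p = 0.000192), with only 1 of 3 WT1-negative arrays detected, so that its WT1-negative level lay close to background; without background correction it gave 0.53 and 0.32.

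**Figure D1:**
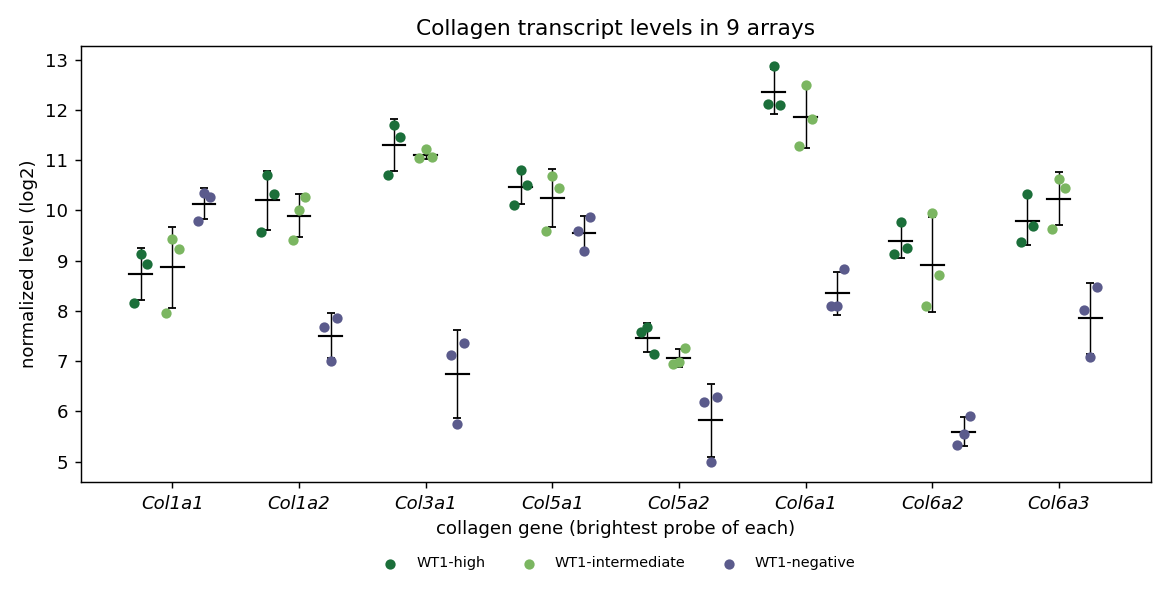
Normalized log2 level (vertical axis) of the brightest probe of each of the 8 collagen genes (horizontal axis), with 1 point per array, the group mean as a line and the SD of 3 arrays as an error bar. *Col1a1* is the gene for which the WT1-negative arrays lie highest, and for *Col5a1* the WT1-intermediate and WT1-negative arrays overlap; levels are comparable between groups of 1 gene, not between genes.

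Type VI collagen was represented by 8 probes, of which 6 passed the filter. For the short chains, 3 probes read *Col6a1* and 2 read *Col6a2*, and they are shown by their first 30 bases since brighter and dimmer probes of a gene differed in the size of the result:
Col6a1 ILMN_2768087: gtctggtccttagtggctagtccttccact
Col6a1 ILMN_1259388: cttcatggctcccccacattccccgtaatc
Col6a1 ILMN_2589422: agccgcgatgcagaagaggtcatcagccag
Col6a2 ILMN_1216661: cagcttctttgacaggttcatccgctggat
Col6a2 ILMN_1258759: tgcgcagctgtggattgctggggctgtctt

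*Col6a1*, one of the short type VI chains, had log2 levels on its brightest probe of 12.12, 12.88 and 12.10 in WT1-high, 11.28, 12.50 and 11.81 in WT1-intermediate, and 8.11, 8.10 and 8.84 among WT1-negative cells. The lowest WT1-positive array exceeded the highest WT1-negative array by more than the range within any group. The difference was 4.02 ± 0.32 for WT1-high (16.2-fold, 95% interval 9.89 to 26.6; adjusted p = 1.5e-06) and 3.52 ± 0.32 for WT1-intermediate cells (11.4-fold, 95% interval 6.98 to 18.8; adjusted p = 5.11e-06). The second probe gave nearly the same sizes, at 4.00 ± 0.27 and 3.60 ± 0.27 (adjusted p = 4.17e-07 and 1.17e-06). The third probe was detected on no WT1-negative array. It passed the filter only through WT1-positive arrays, so its calls are not independent of the filter. WT1-high cells exceeded the WT1-negative background by at least 1.85-fold (adjusted p = 0.00903). WT1-intermediate cells, with 2 of 3 arrays detected, did so by at least 1.49-fold (adjusted p = 0.039), and this call was lost when any of 6 single arrays was left out, with adjusted p values up to 0.145. It was also lost after median scaling (adjusted p = 0.112), without background correction (0.26, adjusted p = 0.0842), with an offset of 50 (adjusted p = 0.0909) and without the filter (adjusted p = 0.133).

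*Col6a2*, the other short chain, read 9.13, 9.77 and 9.25 in WT1-high, 8.09, 9.95 and 8.71 in WT1-intermediate, and 5.33, 5.55 and 5.91 among WT1-negative cells on its brighter probe. Its WT1-intermediate arrays were the most scattered of any kept collagen probe and group, with an SD of 0.945. Even so all of them lay above the WT1-negative arrays, and the difference was 3.32 ± 0.38 (10.0-fold, adjusted p = 2.63e-05), against 3.79 ± 0.38 for WT1-high cells (13.8-fold, 95% interval 7.73 to 24.7; adjusted p = 7.9e-06). Without background correction the brighter probe gave 2.48 and 2.10 for WT1-high and WT1-intermediate cells. The dimmer probe gave 1.52 ± 0.16 and 1.28 ± 0.16 (adjusted p = 1.25e-05 and 5.59e-05).

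*Col6a3* encodes the long chain of the trimer. Its single detected probe of 3 had log2 levels of 9.37, 10.33 and 9.69 in WT1-high, 9.63, 10.63 and 10.44 in WT1-intermediate, and 8.01, 7.08 and 8.47 among WT1-negative cells. Again every WT1-negative array was below the rest. The difference was 1.94 ± 0.37 for WT1-high (3.84-fold, 95% interval 2.18 to 6.76; adjusted p = 0.000914) and 2.38 ± 0.37 for WT1-intermediate cells (5.21-fold, 95% interval 2.96 to 9.16; adjusted p = 0.000238). *Col6a3* was the one gene besides *Col1a1* whose mean normalized level was higher in WT1-intermediate than in WT1-high cells.

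**Figure D2:**
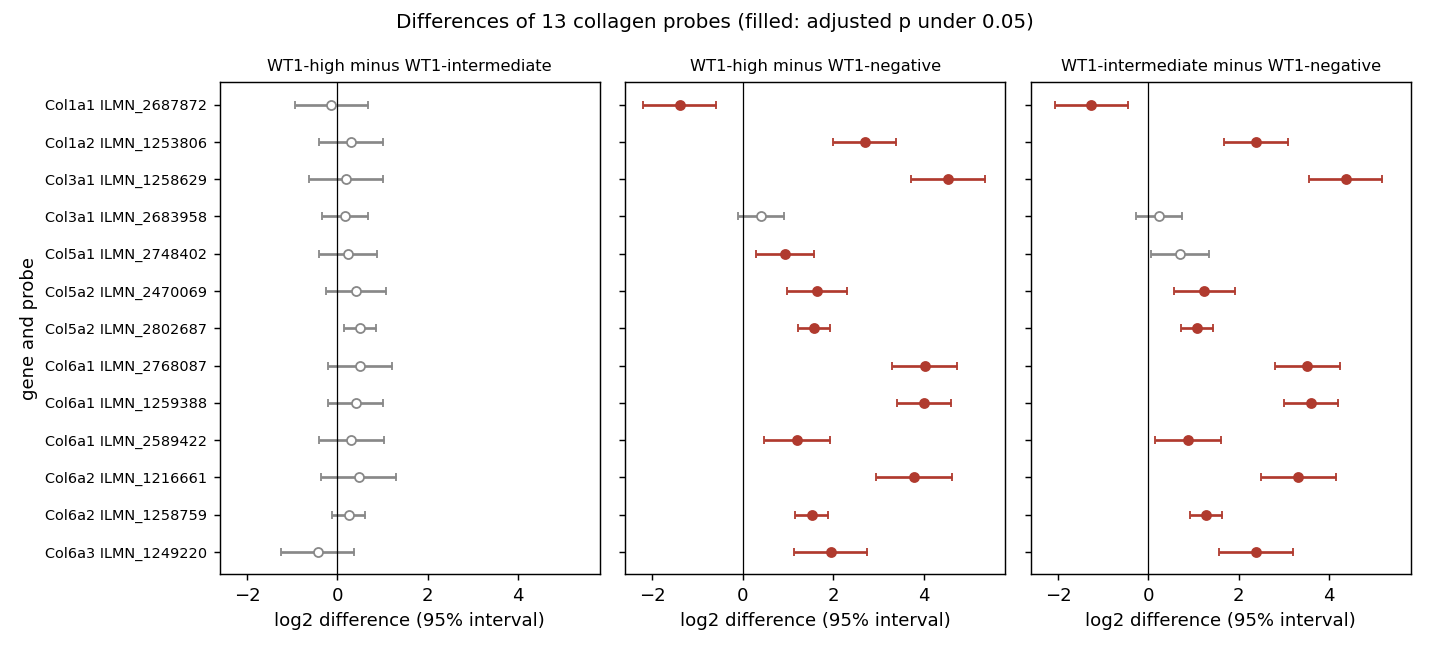
Log2 difference between groups (horizontal axis, first group minus second) with its 95% interval for the 13 collagen probes that passed the filter (vertical axis), 1 panel per comparison; filled points have an adjusted p under 0.05 by limma. No point is filled between the WT1-positive groups, and *Col1a1* is the only filled point below 0 against WT1-negative cells.

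Counted over probes, 11 of the 13 were called higher and 1 lower in WT1-high than in WT1-negative cells. Over all 20573 probes tested, 26.5% were called higher and 33.1% lower in this comparison. Groups did not overlap for 12 of 13 collagen probes, against 68.4% of all probes. The median log2 difference of the collagen probes was 1.65, while that of all probes was -0.10. In WT1-intermediate against WT1-negative cells 10 were called higher and 1 lower, beside 24.4% and 33.6% of all probes. The groups did not overlap for 11 of 13, against 65.5%, and the median difference was 1.28, against -0.13 over all probes. These 2 comparisons share their WT1-negative arrays. The third *Col6a1* probe, counted in both, was detected on no WT1-negative array and passed the filter only through WT1-positive arrays. With detection required on all 9 arrays, 10 collagen probes were called either way for WT1-high cells, among 7970 calls over all probes. For WT1-intermediate cells 9 were called, among 7716. This filter left out the dimmer *Col5a2* and the dimmest *Col6a1* probe, detected on 7 and 5 arrays. The number of all probes that it kept is not given here, so these counts cannot be read as shares. The test over all 3 groups called 12 of the 13 probes, beside 61.1% of all probes, and the dimmer *Col3a1* probe was the exception (adjusted p = 0.307).

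The comparison within fibrotic liver asked whether collagen transcripts distinguish WT1-high from WT1-intermediate cells. By limma, 0 of 13 collagen probes were called, where 3.55% of all probes were, and 1 of the 13 had an unadjusted p under 0.05. This was the dimmer *Col5a2* probe, with log2 levels of 6.24, 6.15 and 6.30 in WT1-high and 5.61, 5.86 and 5.72 in WT1-intermediate cells. It was also the only collagen probe for which the 2 groups did not overlap, as was the case for 20.1% of all probes. Its difference was 0.50 ± 0.16 (95% interval 0.14 to 0.85; adjusted p = 0.134). It was called after median scaling (0.92, adjusted p = 0.0416) and with a random replicate block that follows the column names (0.50, adjusted p = 0.0478).

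The other differences within fibrotic liver were small beside their errors, and the intervals were wide. *Col1a1* gave -0.13 (95% interval -0.94 to 0.67), *Col1a2* 0.30 (-0.40 to 1.01) and the brighter *Col3a1* probe 0.18 (-0.63 to 1.00). The brightest *Col6a1* and *Col6a2* probes gave 0.50 (-0.21 to 1.22) and 0.47 (-0.37 to 1.31), and *Col6a3* gave -0.44 (-1.26 to 0.38). Of the 13 differences, 11 were positive, with a median of 0.30 against 0.05 over all probes. Macrophage markers differed between the same groups, with 7 of 9 called lower in WT1-high cells, and mean array signals were higher in WT1-high cells; their part in these differences was not tested.

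Arrays with the same replicate number could be set against each other, since the 6 in vivo arrays came from 3 animals. After normalization, *Col6a3* was lower in the WT1-high array of every pair, by log2 differences of -0.26, -0.31 and -0.75 for the pairs numbered 1, 8 and 29 with 30. Its deposited intensities were instead higher in the WT1-high array of each pair (753 against 592, 1934 against 1559 and 896 against 691). The direction therefore depended on the normalization between arrays. *Col1a2*, *Col5a1*, all 3 *Col6a1* probes and the dimmer *Col3a1* and *Col5a2* probes were higher in the WT1-high array of every pair, with values for the brightest *Col6a1* probe of 0.84, 0.38 and 0.29. Some of these values were close to 0. In the pair 29 with 30, *Col1a2*, *Col5a1* and the dimmer *Col3a1* probe stood at 0.07, 0.06 and 0.006. The dimmest *Col6a1* probe stood at 0.03 in the pair numbered 8. How often other probes keep 1 sign in every pair was not counted. *Col1a1* and the brighter *Col3a1* probe differed in sign between pairs, at 0.20, -0.30 and -0.30 and at -0.34, 0.48 and 0.41. So did the brighter *Col5a2* probe, at 0.635, 0.699 and -0.115. Both *Col6a2* probes also did, at 1.04, -0.176 and 0.539 for the brighter and 0.45, -0.003 and 0.291 for the dimmer. Arrays numbered 8 tended to be the highest of their group, in 8 of 8 genes for WT1-high and 6 of 8 for WT1-intermediate cells. WT1-intermediate replicate 1 was the lowest of its group in 8 of 8 genes, and WT1-high replicate 1 in 6 of 8.

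**Figure D3:**
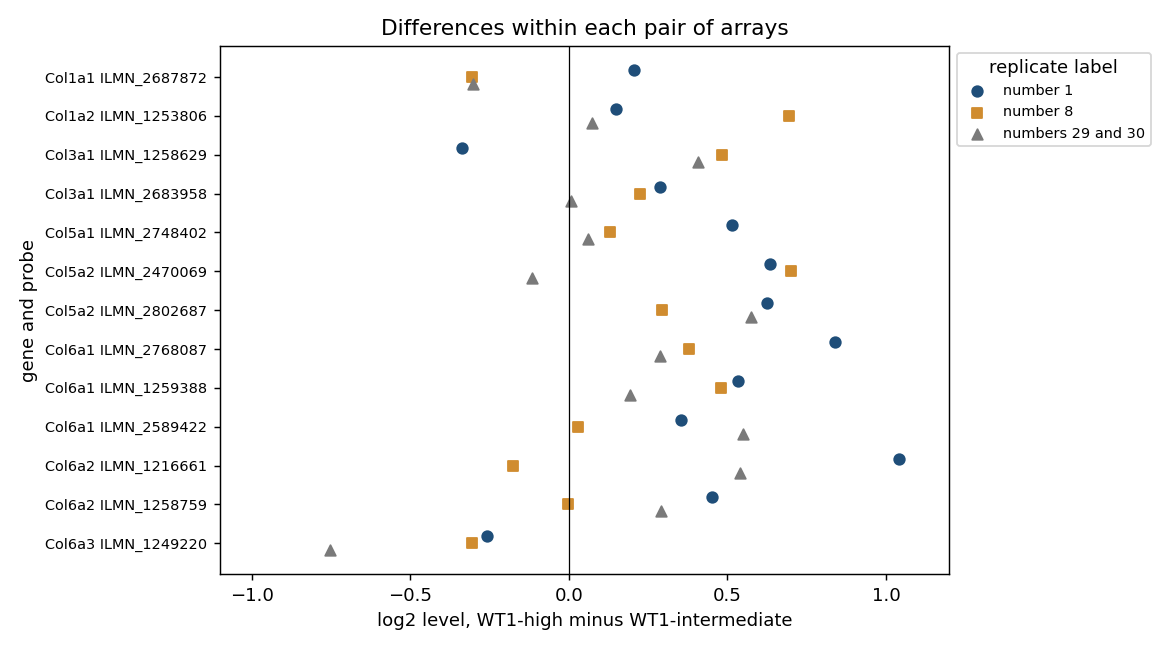
Log2 level of WT1-high minus WT1-intermediate arrays (horizontal axis) for each of the 13 collagen probes (vertical axis), with 1 symbol for each pair of arrays by replicate number. *Col6a3* is the only probe with all 3 pairs below 0.

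Chains of 1 trimer were also compared within each array, where the scale of the array cancels. The difference between the log2 levels of *Col1a1* and *Col1a2* was -1.47 ± 0.10 in WT1-high, -1.03 ± 0.44 in WT1-intermediate, and 2.63 ± 0.64 among WT1-negative cells (SD, n = 3). Only the change between groups can be read, since probes differ in brightness. It shifted by -4.09 between WT1-high and WT1-negative and by -3.65 between WT1-intermediate and WT1-negative cells, and the groups did not overlap in either case (exact two-sided permutation test, p = 0.1 each). With 3 arrays against 3 this p is the smallest that the test can give, and 15 such comparisons were made, so that none could pass 0.05.

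Within type VI collagen, the *Col6a1* and *Col6a2* chains kept nearly the same distance in the main processing, with means of 2.98 ± 0.13, 2.95 ± 0.34 and 2.75 ± 0.20 for WT1-high, WT1-intermediate and WT1-negative arrays (SD, n = 3). The shift was 0.03 between the WT1-positive groups (exact permutation p = 0.9) and 0.23 between WT1-high and WT1-negative cells (exact permutation p = 0.2). Without background correction, however, the brightest *Col6a1* and *Col6a2* probes differed by 3.69 and 2.48 between WT1-high and WT1-negative cells. For WT1-intermediate cells these values were 3.20 and 2.10. With the offset of 50 the WT1-high values were 3.88 and 3.09, so the even distance depended on the background step. In the main processing the distance from *Col6a1* to *Col6a3* was 2.57 ± 0.17, 1.63 ± 0.25 and 0.49 ± 0.48, and no 2 groups overlapped (exact permutation p = 0.1 for each pair of groups). The distance from *Col6a2* to *Col6a3* was -0.41 ± 0.16, -1.32 ± 0.56 and -2.26 ± 0.64. It did not overlap between WT1-high and either other group (exact permutation p = 0.1 each), and overlapped between WT1-intermediate and WT1-negative cells (p = 0.3). In type V, *Col5a1* minus *Col5a2* was 3.01 ± 0.43, 3.18 ± 0.53 and 3.72 ± 0.42, with no overlap only between WT1-high and WT1-negative cells (exact permutation p = 0.1).

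**Figure D4:**
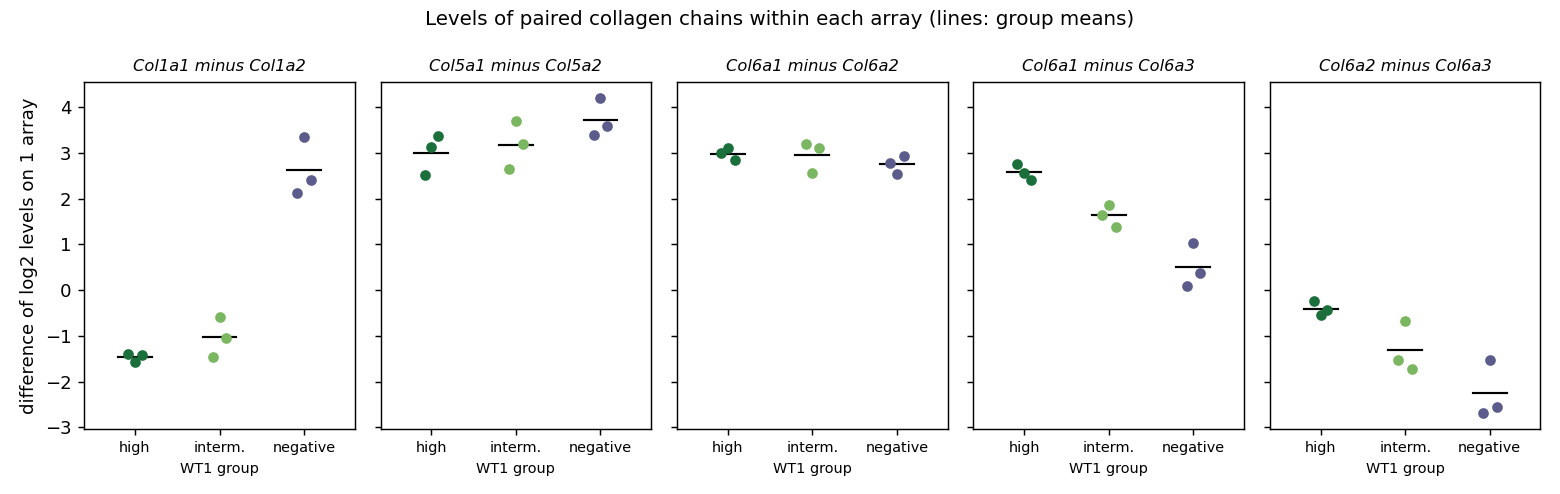
Difference between the log2 levels of 2 collagen chains on the same array (vertical axis, shared by the 5 panels) in the 3 groups (horizontal axis), with 1 point per array and the group mean as a line. *Col1a1* minus *Col1a2* separates cultured from in vivo cells, *Col6a1* minus *Col6a3* separates all 3 groups, and *Col6a1* minus *Col6a2* does neither.

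Probes of 1 gene could differ in the size of their result. Against WT1-negative cells, the brightest *Col6a2* and *Col3a1* probes differed by 3.79 and 4.55 in WT1-high cells, whereas the dimmer kept probes of these genes differed by 1.52 and 0.40. For the dimmest *Col6a1* probe there is only the lower bound given earlier. The 6 collagen probes that failed the filter had intensities of 73.5 to 101, and each of the 2 *Col6a3* probes among them was detected on 1 array. The *Col5a2* pair, in contrast, gave similar sizes (1.65 and 1.57). Among the 13 kept probes the bead standard error was 1.85% to 8.83% of the intensity, over 19 to 78 beads, and the SD within groups had a median of 0.41 on the log2 scale.

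Promoters of 6 of the 8 genes were listed by RefSeq (GRCm38.p6). *Col6a1* and *Col6a2* are neighbours on chromosome 10, and *Col3a1* and *Col5a2* on chromosome 1. The 250 bases before the start site are printed for the 4 genes with the largest folds against WT1-negative cells, with capitals for the motifs CCAAT (bound by NF-Y), GGGCGG (bound by Sp1) and TATAAA (bound by the TATA-binding protein), each searched on both strands. Of all 32851 RefSeq windows of this length, 33.8% held CCAAT, 32.7% held GGGCGG and 12.4% held TATAAA:
Col1a2 (chr6:4505368-4505617, plus strand): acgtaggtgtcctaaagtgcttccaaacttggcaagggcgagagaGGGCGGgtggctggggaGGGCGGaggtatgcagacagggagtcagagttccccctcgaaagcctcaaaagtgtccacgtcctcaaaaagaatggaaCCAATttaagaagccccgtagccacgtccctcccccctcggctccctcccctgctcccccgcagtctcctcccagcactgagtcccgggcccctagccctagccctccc
Col3a1 (chr1:45311288-45311537, plus strand): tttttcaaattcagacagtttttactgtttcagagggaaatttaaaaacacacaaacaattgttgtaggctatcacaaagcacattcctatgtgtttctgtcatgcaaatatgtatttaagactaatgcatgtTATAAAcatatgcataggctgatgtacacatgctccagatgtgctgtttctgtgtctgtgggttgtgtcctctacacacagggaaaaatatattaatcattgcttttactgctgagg
Col6a1 (chr10:76726045-76726294, minus strand): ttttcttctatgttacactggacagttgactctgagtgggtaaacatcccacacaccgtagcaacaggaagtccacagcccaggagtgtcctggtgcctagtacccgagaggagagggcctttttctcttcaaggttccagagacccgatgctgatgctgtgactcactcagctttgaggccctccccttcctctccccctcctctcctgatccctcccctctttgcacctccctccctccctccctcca
Col6a2 (chr10:76623631-76623880, minus strand): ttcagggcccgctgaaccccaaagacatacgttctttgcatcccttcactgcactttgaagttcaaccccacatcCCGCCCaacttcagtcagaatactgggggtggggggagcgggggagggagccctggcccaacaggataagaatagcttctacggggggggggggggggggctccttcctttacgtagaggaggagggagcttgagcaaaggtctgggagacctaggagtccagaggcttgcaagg

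The *Col1a2* window held GGGCGG 205 and 188 bases and CCAAT 109 bases before the start site. The *Col3a1* window held TATAAA 117 bases before it and neither of the other motifs, and its GC content of 35.2% was below the median of 52.4% over all windows. The *Col6a1* window held none of the 3 motifs, and the printed *Col6a2* window held GGGCGG once, 175 bases before the start site and on the opposite strand. RefSeq lists a second start site for *Col6a2*, whose window (chr10:76623405-76623654) held GGGCGG 3 times, 67, 15 and 11 bases before the start site and on the opposite strand. A match or its absence is a description of these letters. Of the factors that bind such motifs, *Sp1* was higher in WT1-high than in WT1-negative cells (log2 difference 1.89, adjusted p = 4.91e-06), while *Nfya* and *Nfyb* were lower (-0.66 and -0.47, adjusted p = 0.00354 and 0.0304). *Sp3*, a relative of *Sp1*, had a difference of the opposite sign to *Sp1* that was not called (-0.48, adjusted p = 0.0532). *Nfyc*, another subunit of NF-Y, had the opposite sign to *Nfya* and *Nfyb* and was not called (0.30, adjusted p = 0.0769).

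The genes whose centred profile over the 9 arrays came closest to each collagen were found by the root mean square (RMS) difference. For *Col6a1* these were *Gbp2* (0.20 on the log2 scale) and *Col6a2* (0.22), and *Col6a1* was in turn the closest gene to *Col6a2*. *Col6a3* was closest to *Lum* (0.22), a leucine-rich proteoglycan of fibrils, and to *Pdgfra* (0.27), a growth factor receptor of stellate cells. *Col3a1* was closest to *Anxa1* (0.32) and *Sulf1* (0.33), and *Col1a2* to *Acadsb* (0.23). *Col5a1* was closest to *Slc2a13* (0.13), *Col5a2* to *Usp6nl* (0.21) and *Col1a1* to *Gbx2* (0.24) and *Fcgrt* (0.28). These are likenesses over 9 arrays in 3 groups, and with so few points many genes share a profile.

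Other collagens and related genes were counted next, each by its brightest kept probe. The counts against WT1-negative cells stand beside the 26.5% of all probes called higher and 33.1% called lower in WT1-high cells, and 24.4% and 33.6% in WT1-intermediate cells, so that those of the other collagen types and of the modification, receptor and upstream genes lie near the background in one direction or both. Of 9 further fibrillar and type VI genes only *Col5a3*, *Col24a1* and *Col27a1* passed the filter. *Col24a1*, a fibrillar collagen of bone, was called in every comparison. The mean level (log2) was 7.35 in WT1-high, 5.77 in WT1-intermediate, and 4.48 among WT1-negative cells (adjusted p = 0.0291 between the WT1-positive groups, 2.74e-05 and 0.00715 against WT1-negative cells). Of 17 kept collagens of other types, 6 were called higher and 4 lower in WT1-high than in WT1-negative cells, and 0 between the WT1-positive groups by their brightest probe in limma (1 by any probe, and 4 with an unadjusted p under 0.05). *Col16a1*, which lies alongside fibrils, rose by 3.40, the basement membrane chains *Col4a6* and *Col4a5* by 2.35 and 1.99, and the fibril-associated *Col14a1* by 1.45 (adjusted p = 2.97e-07, 8.23e-05, 2.51e-05 and 0.00106).

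Genes that modify and export procollagen moved in both directions. Of 18 kept, 8 were called higher and 6 lower in WT1-high than in WT1-negative cells, with a median difference of 0.18, and limma called 0 between the WT1-positive groups (4 with an unadjusted p under 0.05). *Serpinh1*, the collagen chaperone HSP47, was higher by 1.14 (adjusted p = 0.000341), *Fkbp14*, a prolyl isomerase, by 1.77 (adjusted p = 2.97e-05) and *Sec24d*, a cargo adaptor of the vesicles that leave the endoplasmic reticulum, by 2.17 (adjusted p = 1.09e-05). *Sec23a*, of the same coat, was lower, at -0.98 (adjusted p = 0.00109).

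Among 8 kept genes of propeptide removal and crosslinking, 5 were called higher and 1 lower in WT1-high than in WT1-negative cells. The C-proteinase *Bmp1* was higher by 1.26 (adjusted p = 0.00116), its enhancer *Pcolce* by 1.49 (adjusted p = 0.00125) and the lysyl oxidase *Loxl1* by 2.36 (adjusted p = 7.82e-06). *Pcolce2*, a second enhancer, was the only one of the 8 called between the WT1-positive groups. The mean level (log2) was 5.48 in WT1-high, 8.93 in WT1-intermediate, and 4.82 among WT1-negative cells (adjusted p = 0.00084 between the first and second of these).

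Of 8 kept genes for proteins that bind collagen fibrils, 7 were called higher and 0 lower in WT1-high than in WT1-negative cells (*Fn1*, fibronectin, was the exception, at -0.49 with an adjusted p of 0.222), and the median difference was 2.18. *Dpt*, counted among the 7, was detected on no WT1-negative array and was at least 26.4-fold higher (adjusted p = 5.17e-08). It passed the filter only through WT1-positive arrays, so its call is not independent of the filter. *Tnxb*, *Fmod* and *Dcn*, which like *Dpt* regulate fibril assembly, were higher by 3.91, 3.69 and 2.26 on the log2 scale (adjusted p = 1.3e-07, 1.61e-06 and 8.53e-06). The WT1-negative means of *Tnxb* and *Fmod*, 4.94 and 4.55, lay close to background, which limits how well these 2 sizes are known. Between the WT1-positive groups *Dpt* and *Tnxb* were lower in WT1-high cells, at -1.96 and -1.02 (adjusted p = 0.00237 and 0.0344).

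Degradation was represented by 9 kept genes, of which 5 were called higher and 2 lower in WT1-high than in WT1-negative cells. The gelatinase *Mmp2* and the inhibitor *Timp3* were higher by 2.55 and 2.35 (adjusted p = 4.72e-06 and 7.46e-07), and the collagenase *Mmp13* and the gelatinase *Mmp9* were lower, at -3.39 and -3.50 (adjusted p = 3.49e-06 and 6.71e-06). *Mmp13* was also lower in WT1-high cells when set against WT1-intermediate ones, at -2.06 (adjusted p = 0.00482). Macrophages are known to make both enzymes. The macrophage marker sums given earlier followed the same order of groups, as did the means of *Lyz2*, *Cd68*, *C1qa*, *C1qb* and *C1qc*. *Adgre1*, *Csf1r*, *Marco* and *Clec4f* instead had their highest mean log2 level in WT1-intermediate cells (9.95, 9.39, 9.15 and 6.92). The part of macrophages in this was not tested.

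Of 10 kept collagen receptors, 3 were called higher and 2 lower in WT1-high than in WT1-negative cells. The collagen-binding kinase *Ddr1* was higher by 3.54 and *Antxr1*, which binds type VI and other collagens, by 3.28 (adjusted p = 8.6e-08 and 7.82e-06). *Itga11*, an integrin chain for fibrillar collagen, and *Lair1*, a leukocyte collagen receptor, were lower in WT1-high cells when set against WT1-intermediate ones, at -2.37 and -0.99 (adjusted p = 0.011 and 0.0293). Among 15 kept ligands and factors known to act on collagen genes, 5 were called higher and 4 lower in WT1-high than in WT1-negative cells, and 0 between the WT1-positive groups by limma (2 with an unadjusted p under 0.05). *Larp6*, which binds the stem-loop of type I and III collagen messages, was higher by 1.92 (adjusted p = 8.7e-06) and the ligand *Tgfb2* by 2.56 (adjusted p = 6.81e-06). *Tgfb1*, the main fibrogenic ligand, was lower, at -1.86 (adjusted p = 3.98e-05). Against the same WT1-negative arrays, WT1-intermediate cells had 7 collagens of other types called higher and 3 lower, 6 and 5 of the modification and export genes, 5 and 1 of the processing genes, and 5 and 0 of the fibril partners.

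**Figure D5:**
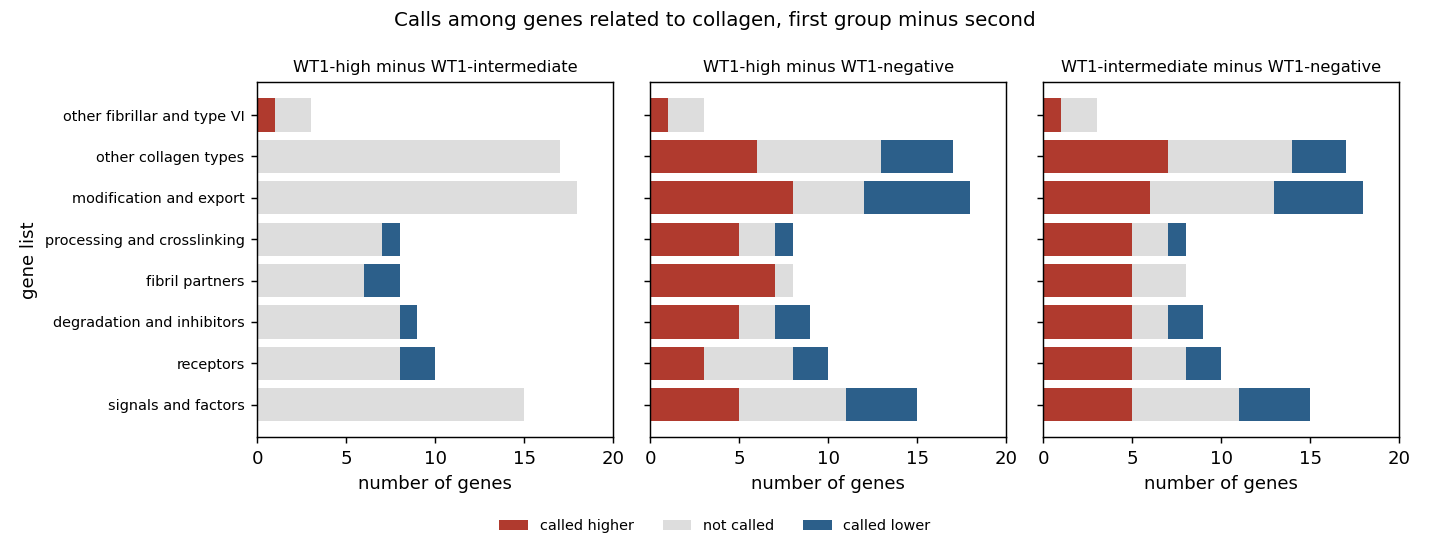
Number of genes (horizontal axis) called higher, called lower or not called by limma in each list of collagen-related genes (vertical axis), by the brightest kept probe of each gene, in 1 panel per comparison. Fibril partners have 7 of 8 genes called higher in WT1-high than in WT1-negative cells and none lower, whereas the modification and export genes split into 8 and 6. Among the 7, *Dpt* passed the filter only through WT1-positive arrays.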

How the data were processed

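Total RNA of 9 samples was hybridised to Illumina MouseWG-6 v2.0 bead arrays. The authors deposited BeadStudio summaries that hold linear intensity values of each probe, neither background corrected nor normalized. Detection p-values, bead numbers and bead standard errors were deposited beside them. The in vivo and in vitro arrays were deposited as separate tables. A joined table held the same intensities (largest difference 0). One in vivo column carried 29 where the label gave 30, and was assigned to replicate 30 of WT1-intermediate cells, since no other array remained for it.

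Intensities of all arrays were corrected with 936 negative control probes by limma 3.58.1 in R 4.3.3 (normexp, offset 16), quantile normalized and set on the log2 scale. The filter required detection (p under 0.05) by 3 or more arrays and left 20573 probes. A linear model of the 3 groups was fitted to all 9 arrays, with 6 residual and 5.19 prior degrees of freedom. Comparisons used limma's moderated two-sided test, and p-values were adjusted by Benjamini-Hochberg over all kept probes. Probes below an adjusted p of 0.05 were termed called. The number of arrays limits the precision. The in vivo study used 3 animals and the cultures were separate isolations. For probes undetected throughout the dimmer group, folds are lower bounds against the lowest detected signal of each array. Such probes passed the filter only through arrays of other groups, so their calls against the dimmer group are not independent of the filter.

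Every collagen probe was reported. In other lists up to 4 genes were to be named, those called in the most comparisons and then with the largest difference; *Nfya*, *Nfyb*, *Nfyc*, *Sp3*, *Fn1* and the stellate markers named were added after their values were seen. For each collagen the 2 genes with the smallest RMS difference were found. The members and lists were chosen with earlier results of these data known. The pairing of in vivo arrays was checked by correlating deviations from group means over probes. It was 0.35 for the arrays numbered 1, 0.34 for those numbered 8 and 0.47 for 29 with 30, and -0.39 to 0.03 for the others. Alternatives were other normalizations, offsets, filters, array weights, replicate blocks and leaving out each array, and the steps were tested on simulated data. Promoter sequences were RefSeq's. The deposited tables name no genome build.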

Additional observations from a re-analysis of the deposited data

How the results depend on the processing

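All 13 collagen probes kept their direction against WT1-negative cells in every setting except median scaling, where the dimmer *Col3a1* probe (-0.06723) and *Col5a1* (-0.02334) reversed in WT1-intermediate cells. Median scaling moved the median of all probes to -0.44 there and to 0.45 between the WT1-positive groups, where *Col1a1* (0.57) and *Col6a3* (0.24) reversed; relative to that median they stood at 0.12 and -0.21. Leaving out single arrays turned 5 differences between the WT1-positive groups, none of them called. *Col1a1* ranged from -0.59 to 0.16, and reached 0.16 without WT1-high replicate 1, 0.15 without WT1-intermediate replicate 8 and 0.04 without WT1-intermediate replicate 30. The brighter *Col3a1* probe ranged from -0.02039 to 0.47 and the dimmer from -0.05056 to 0.35, both below 0 without WT1-high replicate 8 and the dimmer also without WT1-intermediate replicate 1. Without the latter array, *Col5a1* (range -0.09193 to 0.46) and the dimmest *Col6a1* probe (range -0.05342 to 0.65) were below 0.

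Between the WT1-positive groups, the number of called collagen probes was 1 instead of 0 after median scaling and with the random replicate block by column names, and stayed at 0 with the fixed replicate block and the random one by label numbers. Leaving out single arrays gave 0 there, 11 to 12 against WT1-negative cells for WT1-high, 10 to 12 for WT1-intermediate and 9 to 12 over all 3 groups. The replicate block changed no other collagen call except that of *Col5a1* in WT1-intermediate against WT1-negative cells. Median scaling also lowered folds against WT1-negative cells by over 1.5 times in WT1-intermediate cells, among them *Col6a1* (7.51 instead of 11.4), *Col6a2* (6.54 instead of 10.0) and *Col1a2* (3.18 instead of 5.23), and raised that of *Col1a1* (4.02 instead of 2.40, lower). Over all probes, 730 calls between the WT1-positive groups became 2684 (median scaling), 473 (no background correction), 335 (no filter), 339 (only these arrays fitted), 358 (in vivo arrays normalized alone, chosen after seeing the data), 1752 and 1796 (random replicate blocks) and 335 to 867 without single arrays. Of those calls, the percentage that were lower in WT1-high cells moved from 74.5% to 4.51% (median scaling) and 60.7% (no background correction), and that in WT1-intermediate against WT1-negative cells from 57.9% to 76.9% (median scaling). Detection on all arrays gave 7970 instead of 12258 and 7716 instead of 11935 calls against WT1-negative cells. By any probe, 2 rather than 1 of the degradation genes and 1 rather than 0 of the other collagen types were called between the WT1-positive groups.

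Within arrays, the shift of *Col6a1* minus *Col6a2* between the WT1-positive groups turned to -0.11 (loess) and -0.15 (median scaling) and ranged from -0.16 to 0.16 without single arrays, and that against WT1-negative cells to -0.000159 (loess) for WT1-high. *Col5a1* minus *Col5a2* turned to 0.0452 without background correction for WT1-intermediate against WT1-negative cells and ranged from -0.44 to 0.0869 without single arrays between the WT1-positive groups. *Col6a2* minus *Col6a3* turned to -0.082 with the mean of all probes for WT1-intermediate against WT1-negative cells. The cause was not tested. Dim probes near background limit what the smaller differences can show.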
